A study of Mus musculus with 6 samples.

Results

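Gad1, Gad2, Slc32a1, Dlx1, Dlx2, Dlx5, Lhx6, Sst and Npy are 9 genes by which the GABAergic interneurons of the cerebral cortex are recognised. They were chosen by name for that role, with earlier results of these data known, from the 43346 genes of a table of read counts. All 9 were among the 10520 genes that were tested, which are those with at least 10 CPM (counts relative to the library's scaled size) in at least 3 libraries. Primary cell cultures were prepared from mouse fetal cortex at gestational day 15.5 and received vehicle (DMSO) or 10HDA at 1 mM, and total RNA was sequenced. 10HDA is trans-10-hydroxy-2-decenoic acid, the main fatty acid in royal jelly. There were 6 libraries, 3 of each treatment. Cultures 1, 3 and 4 each gave 1 vehicle and 1 10HDA library. By their labels all 6 came from SRY+ embryos of the Cyp19-EGFP strain, a reporter line for the aromatase gene, whereas C57BL/6 embryos are named in the study's methods. The strain and the genotype are given alike for both treatments. The methods name no sorting of the cells, and how many embryos made up a culture is not given in the sources used here.

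Cortical interneurons are born in the ganglionic eminences, outside the cortex, and migrate into it during fetal life. They make the inhibitory transmitter GABA with the glutamate decarboxylases GAD67 (Gad1) and GAD65 (Gad2), and the vesicular transporter VGAT (Slc32a1) loads it into synaptic vesicles. Homeobox factors of the Dlx family set the GABAergic fate in the eminences, and Lhx6 is required by the interneurons of the medial eminence, many of which go on to make somatostatin (Sst). Neuropeptide Y (Npy) is a second peptide of these cells. Dlx1, Dlx2, Dlx5, Gad1 and Gad2 are also used by GABAergic projection neurons of the striatum, and so do not mark cortical interneurons alone.

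The libraries held from 9144736 to 13367194 counts on genes, and the 10HDA library of culture 4 was the smallest. At this depth 3 counts were worth 0.216 to 0.329 CPM, while the 9 genes had between 84 counts (Dlx5) and 1975 counts (Dlx1) in any library. The libraries of culture 1 stood apart. Summed over the Y-linked genes Uty, Kdm5d, Eif2s3y and Ddx3y, the level was 8.87 CPM in its vehicle library and 9.10 CPM in its 10HDA library, against 95.7 to 133 CPM in the other 4, although all are labelled SRY+. Results are therefore also given without culture 1.

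**Figure D1:**
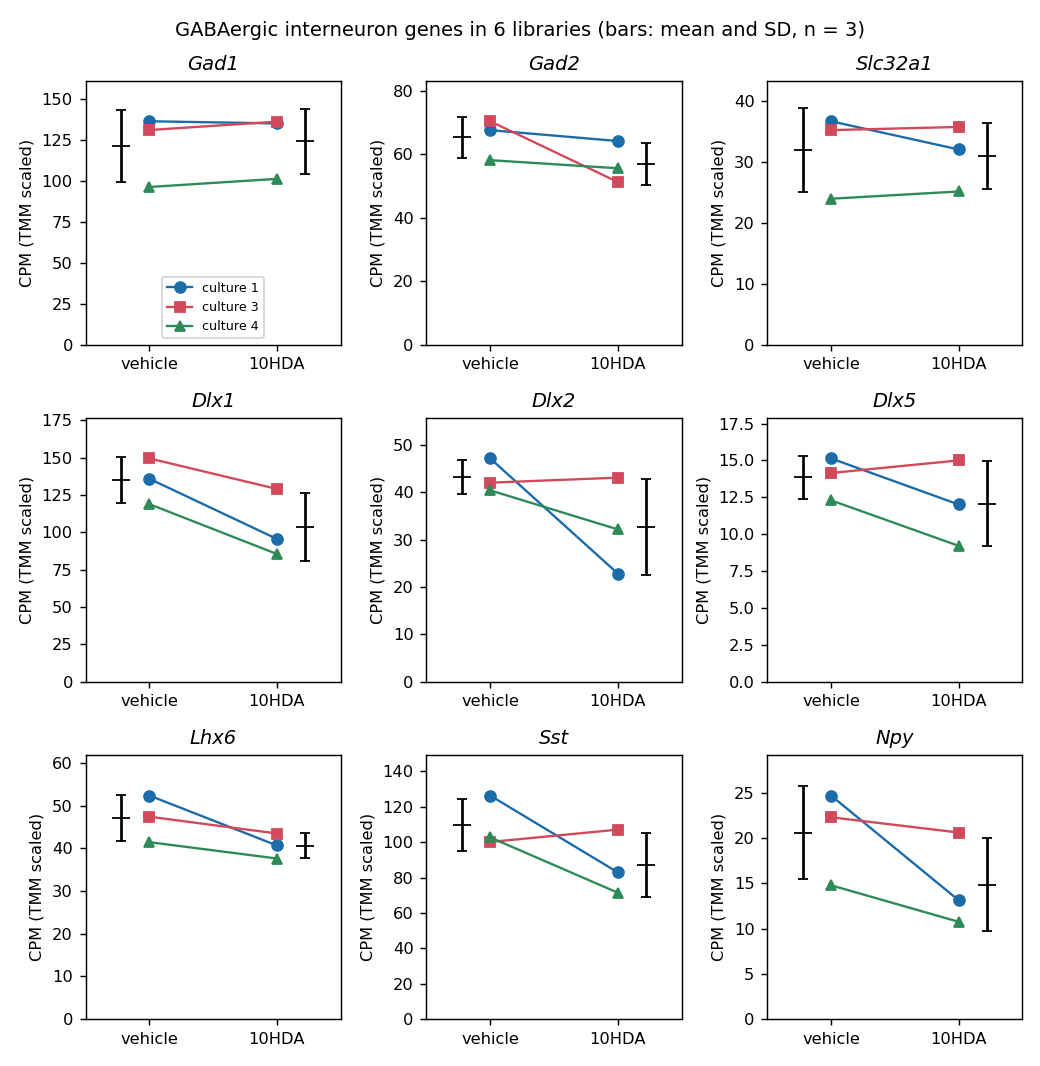
CPM after TMM scaling (vertical axes, each from 0) of the 9 genes in the vehicle and 10HDA libraries. Points of 1 colour joined by a line are the libraries of 1 culture, and the bars at the sides are the mean and SD of 3 libraries. The groups overlap in all 9 panels, and for Dlx1, Dlx2, Sst and Npy the 10HDA libraries of cultures 1 and 4 lie below their vehicle libraries.

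None of the 9 genes passed the test of 10HDA against vehicle without a term for culture. This was edgeR's quasi-likelihood test with an adjusted p under 0.1, which 0.627% of all tested genes passed (66 of 10520). By point estimate 8 of the 9 were lower with 10HDA and Gad1 was higher, with a median log2 fold change of -0.21, against -0.0095 over all tested genes, of which 5486 were lower and 5034 higher. At an unadjusted p under 0.05 the count was 1 of 9 (Dlx1), beside 10.1% of all genes. DESeq2 and limma-voom likewise passed 0 of the 9 after adjustment, beside 170 and 66 of the 10520 genes. At an unadjusted p under 0.05 each had 3 of the 9, beside 989 and 1055 of all genes. The treated and untreated libraries overlapped for each of the 9 genes, whereas 7.44% of all tested genes were lower with 10HDA in 3 libraries that did not overlap the others. Gad2, Dlx1, Lhx6 and Npy were lower within 3 of 3 cultures, beside 21.0% of all genes. Without culture 1 the median of the 9 was -0.11, without culture 3 it was -0.36, and without culture 4 it was -0.25. In each of these 0 of the 9 passed. Leaving out the 10HDA library of culture 3 alone gave a median of -0.38.

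The labels pair the libraries by culture, and with culture as a block more genes were called. Dlx1, Dlx2, Sst and Npy then passed, all lower with 10HDA, which is 4 of 9 beside 8.98% of all genes in either direction and 5.08% lower. These are 2 homeobox factors and both peptides, while none of the 3 genes of GABA synthesis and loading passed in either fit. Of the genes tested in lists described below, the block called 4 of 9 for peptide processing and 3 of 8 further peptides and subtype markers. It called 5 of 12 markers shared by neurons, 6 of 9 astrocyte markers and 1 of 15 further transcription factors. For glutamatergic neuron markers it was 2 of 12, for migration and surface receptors 2 of 11, and for GABA uptake, breakdown and supply 2 of 8. For oligodendrocyte lineage markers it was 3 of 6, for striatal markers 0 of 4 and for dividing cell markers 0 of 6. All these calls were lower with 10HDA. Of 7 radial glia markers the block called 1 lower and 1 higher. The blocked calls among the 9 interneuron genes did not hold for each pair of cultures. Without culture 1 the blocked fit called Dlx1 alone, beside 869 of 10234 genes tested. Without culture 4 it called Dlx2 alone, beside 358 of 10319. Without culture 3 it called the same 4 genes, beside 1089 of 10237. With all cultures the count over all genes was 945 of 10520, so calls without culture 4 were fewer among all genes too. In RNA from whole cultures, fewer interneurons and less RNA per interneuron cannot be told apart.

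**Figure D2:**
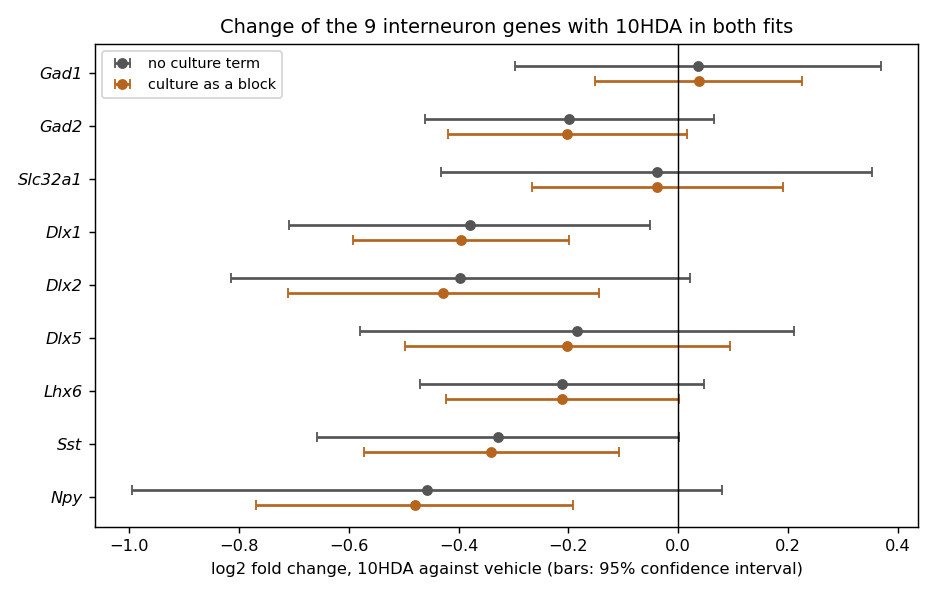
Log2 fold change of each of the 9 genes, 10HDA against vehicle (horizontal axis), from the fit without a culture term (grey) and with culture as a block (brown). Bars are 95% confidence intervals. The point estimates nearly coincide, and the intervals of Dlx1, Dlx2, Sst and Npy lie below 0 in the blocked fit.

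Gad1, which encodes GAD67 (identifier ENSMUSG00000070880.6, GRCm38 chr2:70553072-70602014, plus strand), had 136, 131 and 96.2 CPM in the vehicle libraries of cultures 1, 3 and 4. It had 135, 136 and 101 CPM in the 10HDA libraries in the same order. The 2 libraries of a culture lay close together, and culture 4 was low with either treatment. The means were 121 ± 21.8 and 124 ± 19.8 CPM (SD, n = 3 each), and the log2 fold change came to 0.036 (standard error 0.15, 95% interval -0.30 to 0.37, adjusted p = 0.95). With culture as a block the interval narrowed to -0.15 to 0.23. The sign of this small difference turned in 3 of 24 alternatives.

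Gad2, which encodes GAD65 (ENSMUSG00000026787.3, chr2:22622205-22693874, plus strand), had 67.6, 70.4 and 58.2 CPM with vehicle and 64.2, 51.3 and 55.6 CPM with 10HDA. Most of the difference lay in culture 3, where the log2 ratio of the 10HDA to the vehicle library was -0.46, against -0.075 and -0.065 in cultures 1 and 4. Over the 3 cultures the log2 fold change was -0.20 (standard error 0.12, adjusted p = 0.58, and 0.29 with the block). Neither decarboxylase passed the test.

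Slc32a1, the gene of the vesicular GABA transporter (ENSMUSG00000037771.11, chr2:158610767-158615748, plus strand), had 36.6, 35.2 and 23.9 CPM with vehicle and 32.0, 35.7 and 25.1 CPM with 10HDA. Like Gad1 it was low in both libraries of culture 4. Its log2 fold change was -0.039 (standard error 0.18, 95% interval -0.43 to 0.35, adjusted p = 0.95), and the sign turned in 7 of 24 alternatives. An antisense gene, Gm14205, shares 697 exonic bases with it but had at most 1 count in a library.

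Dlx1, a homeobox factor of the developing interneuron lineage (ENSMUSG00000041911.3, chr2:71528113-71533981, plus strand), had 136, 149 and 119 CPM with vehicle and 95.5, 129 and 85.5 CPM with 10HDA. The 10HDA library was the lower one in each culture, with log2 ratios of -0.51, -0.21 and -0.47 in cultures 1, 3 and 4. The groups still overlapped, since the 10HDA library of culture 3 lay above the vehicle library of culture 4. The means were 135 ± 15.3 and 103 ± 22.8 CPM (SD, n = 3 each), and the log2 fold change was -0.38 (standard error 0.15, adjusted p = 0.43). With the block it was -0.40 (standard error 0.095, 95% interval -0.59 to -0.20, adjusted p = 0.012). Without culture 4 the blocked log2 fold change was -0.35, but it was not called (adjusted p = 0.24). With no filter on low counts, and without the block, the adjusted p was 0.079. The antisense gene Dlx1as shares 335 exonic bases with Dlx1, or 6.21% of its exonic length, and had 34 to 92 counts in a library. The library kit marks strand, but whether the counting used it is not stated, so the counts of this pair are uncertain in that stretch.

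Dlx2 (ENSMUSG00000023391.8, chr2:71543408-71546754, minus strand), the neighbour of Dlx1 at a distance of 9426 bases and transcribed towards it, had 47.1, 42.0 and 40.4 CPM with vehicle and 22.8, 43.1 and 32.1 CPM with 10HDA. The log2 ratio was -1.04 in culture 1, which was the largest within-culture difference of any of the 9 genes, but 0.036 in culture 3 and -0.33 in culture 4. The SD over the 10HDA libraries was accordingly wider than over the vehicle libraries, at 10.1 against 3.52 CPM around means of 32.7 and 43.2 (n = 3 each). Fitted over all 6 libraries the log2 fold change was -0.40 (standard error 0.19, adjusted p = 0.51), and -0.43 with the block (adjusted p = 0.067). The blocked fold change was -0.12 without culture 1 (adjusted p = 0.71) and -0.68 without culture 3. With library size alone as the scaling it was -0.35 (adjusted p = 0.12).

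Dlx5, a homeobox factor that acts after Dlx1 and Dlx2 in the same lineage (ENSMUSG00000029755.9, chr6:6877805-6882085, minus strand), had 84 to 208 counts in a library. These came to 15.1, 14.1 and 12.3 CPM with vehicle and 12.0, 15.0 and 9.21 CPM with 10HDA. Its 10HDA library was lower in cultures 1 and 4 and slightly higher in culture 3, the same signs as for Dlx2. Its log2 fold change was -0.18 (standard error 0.18, adjusted p = 0.73, and 0.47 with the block).

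Lhx6, the LIM-homeobox factor of interneurons from the medial eminence (ENSMUSG00000026890.15, chr2:36081953-36105408, minus strand), had 52.4, 47.4 and 41.5 CPM with vehicle and 40.7, 43.5 and 37.6 CPM with 10HDA. Its 10HDA library was lower in each culture, with log2 ratios of -0.36, -0.12 and -0.14. The fitted log2 fold change was -0.21 (standard error 0.12, adjusted p = 0.56, and 0.25 with the block), so this gene did not pass in either fit.

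Sst, which encodes the somatostatin precursor (ENSMUSG00000004366.3, chr16:23889573-23890958, minus strand), had 126, 100.1 and 103 CPM with vehicle and 82.9, 107 and 71.4 CPM with 10HDA. The 10HDA library was lower in cultures 1 and 4, with log2 ratios of -0.61 and -0.52, and higher in culture 3, with 0.097. The means were 110 ± 14.5 and 87.1 ± 18.2 CPM (SD, n = 3 each). The fitted log2 fold change was -0.33 (standard error 0.15, adjusted p = 0.50), and -0.34 with the block (adjusted p = 0.076). The blocked fold change was -0.18 without culture 1 (adjusted p = 0.43), -0.25 without culture 4 (adjusted p = 0.54) and -0.57 without culture 3. The blocked call was also lost with a filter of 1 CPM (adjusted p = 0.11) and with library size alone as the scaling (adjusted p = 0.16).

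Npy, which encodes the neuropeptide Y precursor (ENSMUSG00000029819.6, chr6:49822710-49829507, plus strand), had 24.7, 22.3 and 14.8 CPM with vehicle and 13.1, 20.6 and 10.8 CPM with 10HDA. The 10HDA library was the lower one in each culture, by a log2 ratio of -0.90 in culture 1, -0.11 in culture 3 and -0.45 in culture 4. The log2 fold change, -0.46, was the largest of the 9 in size (standard error 0.24, adjusted p = 0.54). With the block it was -0.48 (standard error 0.14, 95% interval -0.77 to -0.19, adjusted p = 0.042). The blocked fold change was -0.24 without culture 1 (adjusted p = 0.46), and without culture 4 it was -0.49, which was not called (adjusted p = 0.12).

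**Figure D3:**
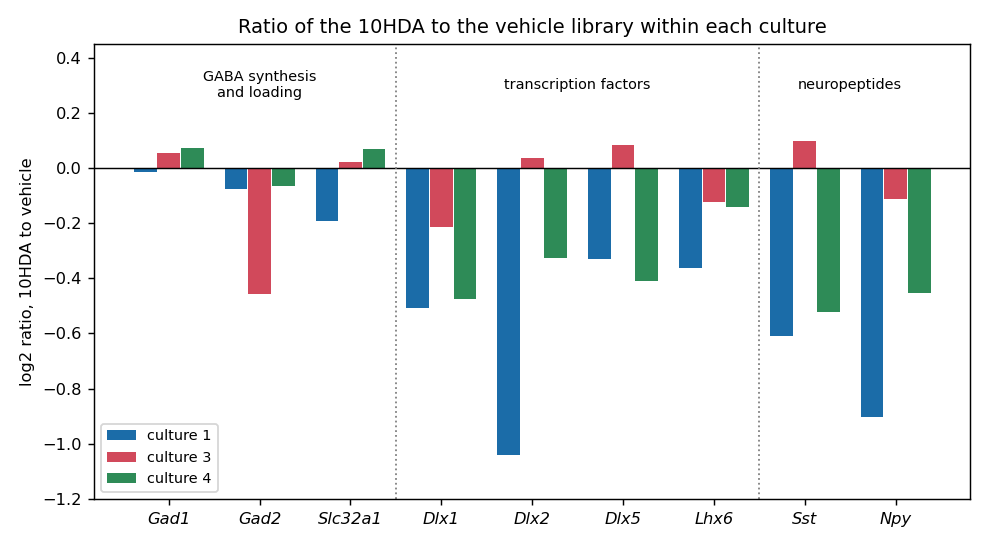
Log2 ratio of the 10HDA to the vehicle library within each culture (vertical axis) for the 9 genes, grouped by role. Each bar is 1 culture. Among the transcription factors and peptides the bars of cultures 1 and 4 lie below 0 for all 6 genes, and those of culture 3 are short, from -0.21 to 0.097.

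Read by role, the difference was uneven. The mean log2 level of the 3 genes of GABA synthesis and loading differed between 10HDA and vehicle by -0.094, -0.13 and 0.026 in cultures 1, 3 and 4. That of the 4 transcription factors differed by -0.56, -0.054 and -0.34, and that of the 2 peptides by -0.76, -0.0077 and -0.49. The means of these differences were -0.065 ± 0.080, -0.32 ± 0.25 and -0.42 ± 0.38 (SD, n = 3 cultures). Culture 3 thus gave almost no difference in the means of factors and peptides, in which genes of opposite sign partly offset each other. The log2 ratios there were -0.21 (Dlx1), -0.12 (Lhx6), 0.036 (Dlx2) and 0.084 (Dlx5), and -0.11 (Npy) and 0.097 (Sst). The spread between cultures was about as large as the mean. The difference between roles was not tested.

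A ratio to Gad1 inside each library does not depend on how libraries are scaled, and Gad1 was chosen as the denominator after its values had been seen. Here 3 of the other 8 genes, Dlx1, Dlx2 and Npy, were lower in every 10HDA library than in any vehicle library, whereas on the plain scale 0 of the 9 were. The share over all tested genes was 0.998% on this scale (105 of 10519) and 7.44% on the plain one. Gad1 is itself lower in culture 4, like most of the 9, so the ratio takes out a difference between cultures that other genes do not share, and nothing is read from the count against that share. For Dlx1 the log2 ratio of counts to Gad1 was -0.0043, 0.19 and 0.31 with vehicle and -0.50, -0.077 and -0.24 with 10HDA. The gap between the groups was 0.072 for Dlx1, 0.012 for Dlx2 and 0.022 for Npy. Within cultures this ratio differed by -0.44 ± 0.15 for Dlx1, -0.48 ± 0.51 for Dlx2 and -0.53 ± 0.36 for Npy (SD, n = 3 cultures). Gad2, Slc32a1, Dlx5, Lhx6 and Sst overlapped between the groups on this scale.

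**Figure D4:**
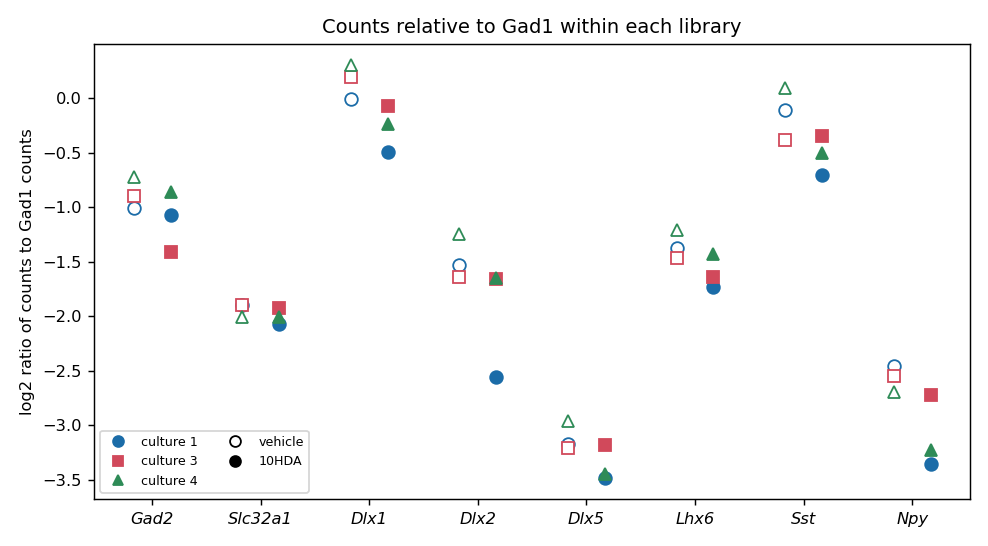
Log2 ratio of the counts of 8 genes to those of Gad1 in the same library (vertical axis). Open points are vehicle and filled points 10HDA libraries, with 1 colour and shape per culture. The filled points of Dlx1, Dlx2 and Npy all lie below the open ones, for Dlx2 by 0.012.

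Several of these genes differed between the cultures. In a test of the 3 cultures with treatment in the fit, Gad1, Slc32a1, Dlx1 and Npy passed (adjusted p = 0.020, 0.032, 0.039 and 0.021), which is 4 of 9 beside 9.93% of all tested genes. Culture 4 was below culture 3 for all 9 genes, by -0.087 (Gad2) to -0.77 (Npy) on the log2 scale, whereas the median over all genes was 0.018. Against culture 1 it was lower for 8 of the 9, all but Dlx2. For Gad1 the means of the 2 libraries were 136, 133 and 98.6 CPM in cultures 1, 3 and 4, and for Npy they were 18.9, 21.5 and 12.8 CPM. Without the vehicle or the 10HDA library of culture 4, 0 of the 9 passed, and over all genes the count went from 1045 to 333 and 149. Without the vehicle library of culture 3, 7 of the 9 and 2178 of all genes passed. The Nkx2-1 and Lhx8 genes, factors of the ventral eminence named here after their values were seen, were under the filter. Nkx2-1 had 1.97 and 2.16 CPM in culture 4 and 5.64 to 7.50 CPM in the other 4 libraries. Lhx8 had 1.32 and 1.66 CPM against 3.78 to 5.15 CPM.

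Per kilobase of exon, Sst was the most abundant of the 9 in vehicle cultures, at 183 ± 24.2 CPM per kb (SD, n = 3). Npy followed with 36.4 ± 9.16, then Dlx1 with 25.0 ± 2.84, Gad1 with 15.9 ± 2.85 and Dlx2 with 15.1 ± 1.23 CPM per kb. Slc32a1, Gad2, Lhx6 and Dlx5 lay between 9.74 and 11.4 CPM per kb. Sst stood clear of Npy, and Dlx1 clear of Gad1, by more than their SDs. The ranges of mean and SD met for Npy and Dlx1, and for all neighbours from Gad1 down to Dlx5. These SDs ignore that the genes were counted in the same libraries, so they do not show that such neighbours were equal. Differences between genes within a library were not tested. In 10HDA cultures Sst and Npy again led, at 145 ± 30.4 and 26.2 ± 9.11 CPM per kb. The exon lengths are those of the table, which for Sst and Dlx5 (599 and 1423 bases) are shorter than in the newer annotation (721 and 2263 bases).

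Of the 9 genes, 6 lie on chromosome 2, 2 on chromosome 6 and 1 on chromosome 16. The promoters were read from RefSeq (GRCm38.p6), as 250 bases before and 50 after the start site, and 8 of the 9 genes matched, with 10 start sites. Dlx5 had no entry. Shown are those of the genes that passed with culture as a block, except Dlx1, whose window lies inside its own annotated exon. For Sst only 30 bases around 1 motif are given, because part of that window is annotated as exon. These 30 bases lie within the exonic part. Capitals mark TGACGTCA, the cAMP response element for which the Sst promoter is a textbook case, its core TGACG, and CCAAT, written ATTGG where it lies on the other strand.
Sst, chr16:23890874-23890903, minus strand: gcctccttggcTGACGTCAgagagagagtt
Npy, chr6:49822460-49822709, plus strand: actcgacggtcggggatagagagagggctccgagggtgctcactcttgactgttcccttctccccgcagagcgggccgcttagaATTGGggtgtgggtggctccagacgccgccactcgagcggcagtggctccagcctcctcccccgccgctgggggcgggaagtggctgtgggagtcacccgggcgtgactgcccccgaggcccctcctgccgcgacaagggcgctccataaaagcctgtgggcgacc
Dlx2, chr2:71546755-71547004, minus strand: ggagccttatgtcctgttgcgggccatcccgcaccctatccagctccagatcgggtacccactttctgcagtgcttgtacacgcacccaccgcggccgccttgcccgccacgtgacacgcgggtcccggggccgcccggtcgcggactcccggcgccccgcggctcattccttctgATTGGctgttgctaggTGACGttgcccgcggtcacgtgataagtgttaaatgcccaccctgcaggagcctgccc

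Both strands were searched. TGACGTCA began 48 bases before the start site of Sst, in no other of the windows, and in 1.79% of the 32851 promoters of the table. The shorter TGACG, which lies within it, was in Sst, Dlx2 and Gad2 and in 20.8% of all promoters. CCAAT was in Npy, Dlx2, Gad2 and 2 of the 3 start sites of Lhx6, and in 37.4% of all promoters. The homeodomain core TAATTA was in none of the 10 windows and in 5.29% of all. Of the 4 genes that passed with the block, Sst and Dlx2 both held TGACG, Npy and Dlx2 both held CCAAT, and Dlx1 held none of the motifs.

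The genes whose pattern over the 6 libraries was nearest to the mean pattern of the 9 were Efnb3, Lmo3, Spef1, Galnt10 and Camk2n1. The measure was the Euclidean distance between profiles of log2 CPM standardised to mean 0 and SD 1, and it ran from 0.509 to 0.579 for these genes. It ran from 0.499 (Npy) to 2.06 (Gad2) for the 9 themselves, so several of the 9 were less like their own mean than these 5. Their log2 fold changes were -0.11, -0.24, -0.15, -0.15 and -0.30 in that order, and none passed without the block. Camk2n1, an inhibitor of CaM kinase II, passed with it (adjusted p = 0.058).

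Among 22 further transcription factors of interneurons and their progenitors, 15 were tested and 0 passed, with 11 lower and 4 higher and a median log2 fold change of -0.11. Dlx6os1, the long noncoding RNA of the Dlx5 and Dlx6 locus, had 40.3 ± 8.57 CPM with vehicle and 31.4 ± 3.48 with 10HDA. Its log2 fold change was -0.36 (standard error 0.16, adjusted p = 0.47, and 0.058 with the block). Lmo3, a LIM-domain partner of transcription factors, had -0.24 (standard error 0.13, adjusted p = 0.54, and 0.13 with the block). Dlx6 itself, named after its values were seen, was under the filter, at 3.40 to 6.44 CPM.

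Of 14 genes for migration and surface receptors of interneurons, 11 were tested, with 8 lower and a median of -0.18. Kit, the receptor of stem cell factor, passed. It had 49.9, 56.9 and 53.4 CPM with vehicle and 32.8, 34.2 and 38.0 CPM with 10HDA. The groups did not overlap, and the fitted log2 fold change was -0.61 (standard error 0.11, adjusted p = 0.049, and 0.00047 with the block). Without the block it passed in 2 of the 6 fits that left out 1 library, those without the vehicle library of culture 1 or the 10HDA library of culture 4, and the adjusted p over the 6 ran from 0.031 to 0.39.

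Of 16 further peptides and subtype markers, 8 were tested, with 7 lower and a median of -0.21, and Reln passed. Reln encodes reelin, an extracellular protein of Cajal-Retzius cells and of a class of interneurons, and it fell from 123, 154 and 142 CPM to 90.6, 89.0 and 87.8 CPM. Its log2 fold change was -0.64 (standard error 0.10, adjusted p = 0.043, and 0.00014 with the block). Like Kit it passed in the same 2 of the 6 fits that left out 1 library, with adjusted p from 0.036 to 0.30. Without culture 1 the log2 fold changes were -0.60 for Kit (adjusted p = 0.41) and -0.72 for Reln (adjusted p = 0.16), and with the block as well both passed. Of 7 Cajal-Retzius markers, 2 were tested and 0 passed. On the log2 scale Zic1 differed by 0.19 (adjusted p = 0.86) and Cacna2d2 by 0.013 (adjusted p = 0.98). Markers of interneurons that mature after birth were scarcely counted, and they are named here after their values were seen. Pvalb had 0 to 0.172 CPM, Vip 0.0831 to 0.627 CPM and Crh 0.110 to 0.358 CPM.

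For GABA uptake, breakdown and precursor supply, 8 of 9 genes were tested and 0 passed, with 5 lower and a median of -0.092. Abat, the transaminase that breaks GABA down, had 108 to 111 CPM with vehicle and 83.4 to 92.2 CPM with 10HDA, without overlap. Its log2 fold change was -0.30 (standard error 0.092, adjusted p = 0.30, and 0.057 with the block). Glul, the glutamine synthetase of astrocytes, had -0.28 (adjusted p = 0.38, and 0.076 with the block).

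Of 8 receptors of somatostatin and NPY, 2 passed the filter and 0 the test. On the log2 scale Sstr2 differed by -0.27 (standard error 0.15, adjusted p = 0.56) and Npy1r by 0.081 (standard error 0.17, adjusted p = 0.88). Of 10 genes of peptide processing, 9 were tested and 0 passed, with 7 lower and a median of -0.13. Pcsk2, a convertase that cuts peptide precursors, had -0.46 (adjusted p = 0.35, and 0.0051 with the block), and Chga, a protein of dense-core granules, had -0.30 (adjusted p = 0.37, and 0.067 with the block).

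**Figure D5:**
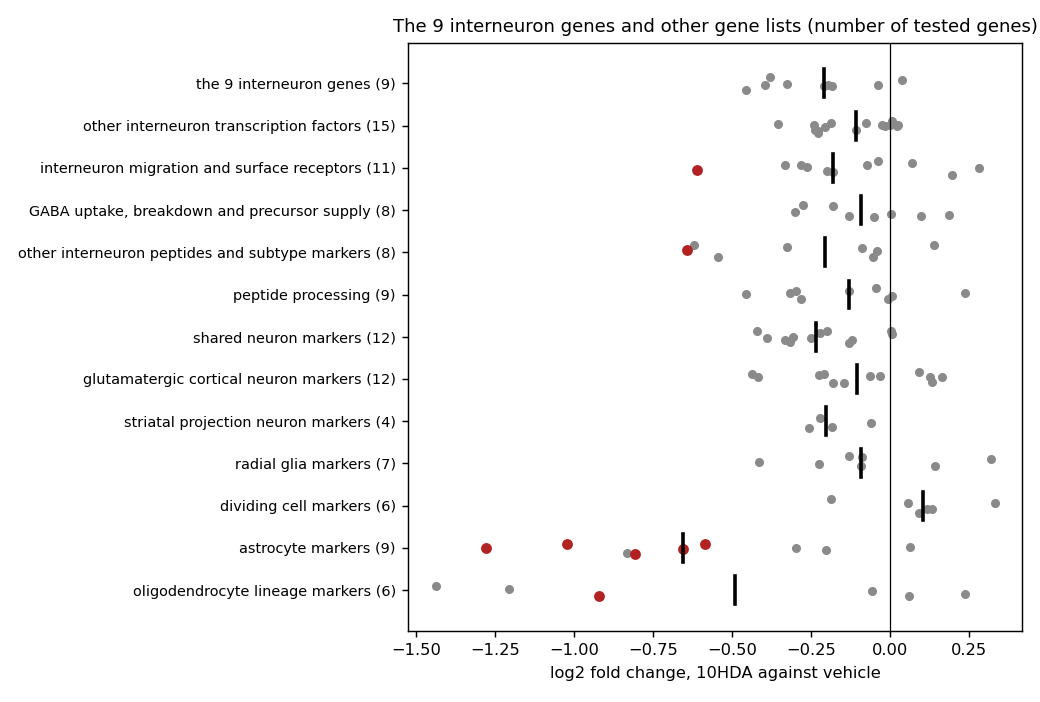
Log2 fold change of single genes, 10HDA against vehicle (horizontal axis), for the 9 interneuron genes and 12 other lists with at least 4 tested genes. Each point is a gene, red where it passed an adjusted p of 0.1 without the block, and the black line is the median of the list. The medians are -0.21 for the 9 genes, -0.24 for shared neuron markers and -0.66 for astrocyte markers.

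Markers of other neurons were mostly lower as well. Of 12 markers shared by neurons, all were tested, 10 were lower and 0 passed, with a median of -0.24, and the block called 5, all lower. Their summed level was 8834 to 9375 CPM with vehicle and 7331 to 8297 CPM with 10HDA. For Rbfox3, the neuronal splicing factor NeuN, the fold change was -0.42 on the log2 scale (adjusted p = 0.25), and for Snap25, a protein of synaptic vesicle fusion, it was -0.39 (adjusted p = 0.27). Measured against these 12 genes within each library, the mean log2 level of the 9 interneuron genes differed by -0.25, 0.17 and -0.025 in cultures 1, 3 and 4, a mean of -0.035 ± 0.21 (SD, n = 3). The difference was thus within the spread between cultures. Against 12 markers of glutamatergic cortical neurons it was -0.43, 0.029 and -0.077, a mean of -0.16 ± 0.24. Of those 12, 8 were lower and 0 passed, with a median of -0.11, and the block called 2, both lower. The sum was 1550 to 1852 CPM with vehicle and 1445 to 1631 CPM with 10HDA. Slc17a7, the vesicular glutamate transporter, had -0.42 (adjusted p = 0.18), and Camk2a, a subunit of CaM kinase II, had -0.44 (adjusted p = 0.19). Whether the neuron markers have a part in the values of the 9 genes was not tested.

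Glial and vascular markers included genes that passed without the block. Of 10 astrocyte markers 9 were tested, with 8 lower and 1 higher and a median of -0.66. The sum was 837 to 1046 CPM with vehicle and 590 to 723 CPM with 10HDA. The 5 that passed, all lower, were Gfap (-1.28), Aldh1l1 (-1.02), Aldoc (-0.81), Clu (-0.66) and Slco1c1 (-0.59), as log2 fold changes. Of 8 oligodendrocyte lineage markers 6 were tested and 1 passed, Cspg4, with -0.92, at sums of 329 to 409 and 248 to 354 CPM. Of 7 endothelial and pericyte markers 1 was tested and passed, Pdgfrb, with -1.07, at sums of 17.2 to 19.1 and 8.24 to 11.0 CPM. Pdgfrb met the filter through the 3 vehicle libraries only, and was under it when any 1 of them was left out. It was thus tested only through the group where it was high, and nothing is read from its call. None of these 7 called genes passed when the 10HDA library of culture 1 was left out, which left 0 calls among all genes. Without the vehicle library of culture 3 the calls of Aldh1l1, Aldoc and Gfap held, and without that of culture 4 those of Aldh1l1 and Aldoc. Slco1c1 was past the threshold in 11 of 24 alternatives, and its adjusted p of 0.089 became 0.11 with DESeq2's size factors, 0.14 with upper quartile scaling, 0.21 with library size alone and 0.12 with a filter of 1 CPM. Slco1c1 and Pdgfrb were also lost without the vehicle library of culture 1, and Slco1c1 without the 10HDA library of culture 3. Without both libraries of culture 1, Pdgfrb was under the filter and the other 6 passed only with the block. The vascular marker Kdr was under the filter, at 0.505 to 1.21 CPM. None of 7 microglia markers was tested, and their sum was 0.914 to 1.08 CPM with vehicle and 0.649 to 1.21 CPM with 10HDA. Aif1 had 0.144 to 0.627 CPM and C1qa 0 to 0.329 CPM, and Tmem119, named after its values were seen, was at 0 in all 6 libraries.

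Markers of the neighbouring tissue and of progenitors gave 0 calls. Of 12 markers of striatal projection neurons, which share several of the 9 genes, 4 were tested and all 4 were lower, with a median of -0.20 and sums of 85.3 to 109 CPM with vehicle and 79.4 to 101 CPM with 10HDA. Rgs9, a regulator of G protein signalling, had a log2 fold change of -0.18 (adjusted p = 0.70). Of 9 radial glia markers 7 were tested, with 5 lower and a median of -0.092. Fabp7, a fatty acid binding protein, had -0.41 and the intermediate filament gene Vim 0.32 (adjusted p = 0.31 for both), and neither overlapped between the groups. Of 8 dividing cell markers 6 were tested, with 5 higher and a median of 0.10, among them Cdk1 with 0.33 (adjusted p = 0.58) and Top2a with 0.13 (adjusted p = 0.72). The part of these lists in the values of the 9 genes was not tested.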

How the data were processed

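Total RNA from vehicle and 10HDA arms of 3 mouse cortical cultures (6 libraries) was sequenced as single-end reads. Per the study's methods, the authors placed the untrimmed reads on the mm10 genome with Subjunc (Subread 1.4.4) and made counts per gene with featureCounts on Gencode models, and the deposited values are these raw counts, not normalized or filtered. The table was joined to the libraries by their labels, with 0 further sample columns. Symbols and positions came from GENCODE M21, which matched 98.0% of identifiers.

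Here genes were tested if 3 or more libraries had at least 10 CPM, counts were scaled by TMM, and edgeR 4.0.16 (glmQLFit and glmQLFTest, R 4.3.3) was run over all genes with p-values adjusted by Benjamini-Hochberg and called under 0.1. The study's methods name edgeR, TMM, a filter at 10 CPM and 3 samples and a false discovery rate of 0.1. They print that rate as a lower bound and the filter as a removal of genes under 10 CPM, both read here as above, and they name neither the quasi-likelihood test nor a culture term. Levels are CPM after TMM scaling. Log2 ratios within cultures used a prior count of 2, and ratios to Gad1 a pseudocount of 0.5. Between libraries the common coefficient of biological variation came to 0.116, or 0.0849 under the culture block. Scripts were tested on simulated data. With 3 libraries against 3 an exact permutation test cannot give a p below 0.1, so none was run. Intervals and limits cover the spread between these libraries, or counting error only.

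The labels give each culture 1 library of each treatment, so culture pairs the libraries. As a check, deviations from the treatment means correlated across genes at 0.37, 0.24 and 0.62 within cultures 1, 3 and 4, and at -0.45 to 0.18 between cultures. Genes are not independent replicates. All library pairs differed by more than sampling noise.

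The genes and lists were chosen with earlier results of these data known. Named besides the 9 genes were, per list, the genes past the threshold (at most 5) or else the 2 with the smallest p, or, with under 2 tested, the 2 with most counts, and the 5 genes nearest in profile. Genes named outside this rule are said in the text to have been chosen after their values were seen, apart from annotated neighbours and the Y-linked genes. A gene that this rule names is not reported here. DESeq2 1.42.0, limma-voom (limma 3.58.1), other scalings, filters and thresholds, the block and left-out libraries or cultures were the alternatives, 19 planned and 5 added after the data were seen, as was the ratio to Gad1. Libraries of the study's other experiments were not used here.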

Additional observations from a re-analysis of the deposited data

How the results depend on the processing

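Counts of genes called, without the block, were 170 by DESeq2, 636 with no filter, 43 at a threshold of 0.05, and 2, 0 and 35 without culture 1, 3 or 4, against 66. The 9 interneuron genes had 0 calls in each of these, except for 1 (Dlx1) with no filter. Leaving out single libraries gave 0 (10HDA, culture 1) to 355 calls (10HDA, culture 4) among all genes and 0 among the 9. The higher share of calls was 31.8%, and 44.9% with library size alone. With culture as a replicate block there were 945 calls among all genes and 4 among the 9. Under the block these were 1148 and 3 with a filter of 1 CPM, 1236 and 2 with library size alone (74.3% of calls higher, against 43.5%), 943 and 4 with DESeq2's size factors, and 869 and 1, 1089 and 4, and 358 and 1 without culture 1, 3 or 4. For the test between cultures, 604 genes passed at 0.05, and 149 to 2568 genes and 0 to 7 of the 9 passed when single libraries were left out.

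The small difference of Slc32a1 was above 0 with library size alone (0.033, and 0.035 with the block) and without culture 1 (0.067, and 0.063 with the block), and ran from -0.19 to 0.094 when single libraries were left out. That of Gad1 ran from -0.085 to 0.16. The cause was not tested. The other 7 genes stayed below 0 in all 24 alternatives, from -0.78 (Npy) to -0.032 (Dlx5). Library size alone moved the median of all genes to 0.064. Fits that left out 1 library kept 2 in its group, and a p above the threshold in so few libraries does not show that levels were equal.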
